A study of Mus musculus with 10 samples.

Results

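Genes of the cartilage program were followed through osteogenic culture of MC3T3-E1 cells, to ask whether a chondrocyte program appears beside the osteoblast program. The set held 10 of the 40620 genes in the count table, found by their gene identifiers: the transcription factors Sox5, Sox6 and Sox9, the cartilage proteoglycan aggrecan (Acan) and its link protein (Hapln1), cartilage oligomeric matrix protein (Comp) and the matrilins Matn1, Matn2, Matn3 and Matn4. MC3T3-E1 is a pre-osteoblast line from mouse calvaria, bought as a subclone, so the culture stands for 1 clonal line and not for bone or growth plate. RNA was sequenced at 5 stages with replicates A and B at each, 10 libraries in all. Subconfluent cells and confluent cells (day 0) were grown in αMEM with 10% serum, and cells at 24 h, 14 d and 21 d had been kept after confluence in that medium, to which β-glycerophosphate (10 mM) and ascorbic acid (50 µg/ml) were added. Nothing states whether A and B came from separate cultures, so p-values measure the spread between these libraries, which may be technical.

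SOX9 is the transcription factor without which cartilage does not form, and SOX5 and SOX6 lack an activation domain of their own and assist it on the enhancers of cartilage matrix genes. In cartilage, aggrecan binds hyaluronan and link protein locks the pair together, while matrilins and COMP are adaptor proteins that connect collagen fibrils, proteoglycans and other matrix proteins. None of these roles is exclusive to chondrocytes: Matn2 and Matn4 are also made in many connective tissues, and Comp in tendon and ligament.

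Counts per library ran from 44736156 to 162939333, and levels are given as the RPKM values of the authors, which divide the counts by gene length and by the size of the library. Fold changes are log2 values from edgeR's quasi-likelihood test on the counts of all 10 libraries, with Benjamini-Hochberg adjustment over the 20808 genes that passed its filter on low counts. A gene was said to rise or fall at an adjusted p-value under 0.05 and was called when it also changed by more than 2-fold. Replicates were least alike at 24 h, where the log2 ratio of A to B over 16133 genes had an SD of 0.685, against 0.287 to 0.325 elsewhere. A single pair of index sequences labelled the early libraries (subconfluent, confluent, 24 h), while the late ones (14 d, 21 d) had a different pair, so early and late stages cannot be told apart from these sets of libraries. Comparisons within a pair (confluent against subconfluent, 24 h against confluent, and 21 d against 14 d) are therefore given as well. The cells carried their labelled identity: all 10 osteoblast markers examined passed the filter, and Ibsp, the bone sialoprotein gene, rose from 196 and 205 RPKM in confluent cells to 4081 and 4374 RPKM at 14 d. In RNA from a mixed culture, fewer cells of a type and less RNA per cell cannot be told apart.

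Of the 10 genes, 8 passed the filter and were tested, and Acan and Matn1 were close to 0 throughout. At 14 d against confluent cells, 7 of the 8 were called, with Sox6, Sox9, Comp, Matn2, Matn4 and Hapln1 higher and Matn3 lower, where 13% of all tested genes were called (9.15% higher and 3.85% lower). At 21 d against confluent cells 7 of the 8 passed the test at any fold (42.8% of all genes did) and 4 were called (21.1% of all genes, 12.7% higher and 8.42% lower), namely Sox9, Comp and Matn2 higher and Matn3 lower. At 21 d against subconfluent cells 7 were called, against a background of 27.6%, and the eighth, Sox5, rose by less than 2-fold. The F test over the 5 stages passed for 7 of the 8, all but Sox5 (adjusted p = 0.061), and for 48.9% of all genes. When edgeR scaled by library size alone, the count called at 14 d against confluent cells was 3, because Sox6 missed the threshold and Matn2, Matn4 and Hapln1 came to just under 2-fold (log2 fold changes of 0.98, 0.99 and 0.99).

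**Figure D1:**
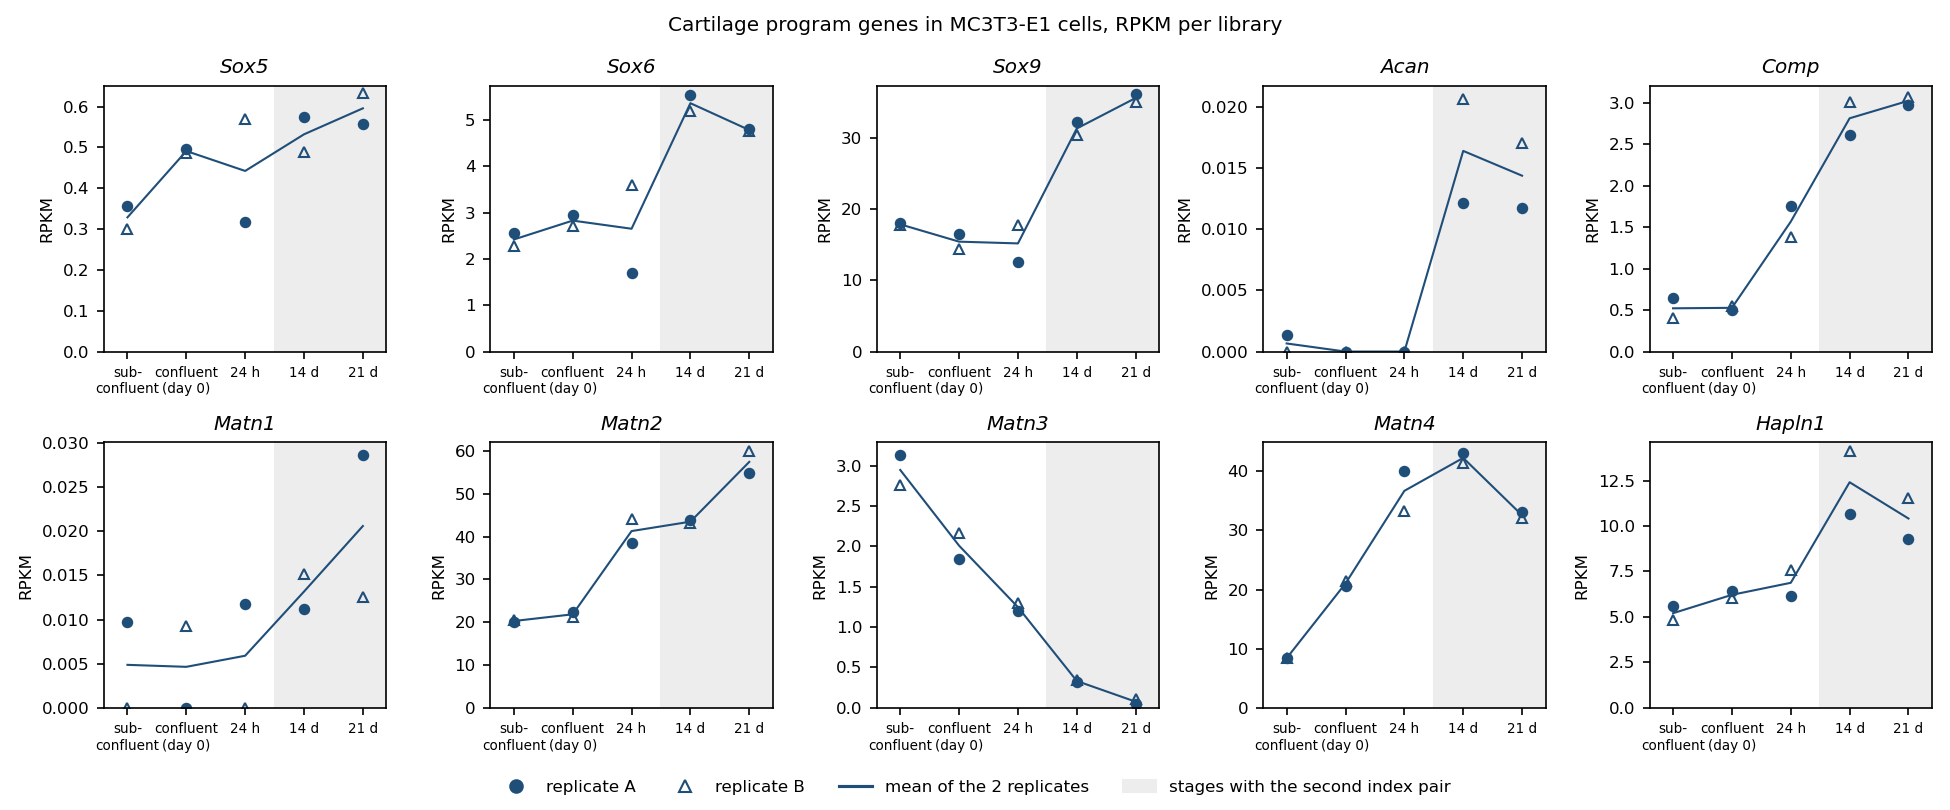
RPKM of the 10 genes (vertical axis, from 0 and scaled for each gene) at the 5 stages (horizontal axis), with filled circles for replicate A, open triangles for replicate B, a line through the mean of both, and grey for the stages with the second index pair. Comp, Matn2 and Matn4 are already higher at 24 h, Sox6, Sox9 and Hapln1 are higher from 14 d, Matn3 declines at each stage to 0.0475 and 0.104 RPKM at 21 d, and the axes of Acan and Matn1 end near 0.0206 and 0.0287 RPKM.

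By their mean over the 10 libraries the genes spanned a wide range of levels. Matn2 had the highest RPKM, at 36.9, above 92.0% of the 40602 genes with a value, and Matn4 followed at 28.2 RPKM and Sox9 at 23.1 RPKM. Hapln1 had a mean of 8.22 RPKM and Sox6 of 3.61 RPKM, while Comp, Matn3 and Sox5 had means of 1.69, 1.32 and 0.478 RPKM. Matn1 and Acan had means of 0.00984 and 0.00628 RPKM. The summed RPKM of all 10 genes lay between 57.2 and 58.7 in subconfluent cells, 69.0 and 71.8 in confluent cells, 102 and 110 at 24 h, 138 and 139 at 14 d and 142 and 147 at 21 d, most of it from Matn2, Matn4 and Sox9.

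Sox9 lies on chromosome 11 of GRCm38 (112782224 to 112787760, plus strand). It had 18.0 and 17.8 RPKM in subconfluent cells, 16.5 and 14.4 in confluent cells, 12.6 and 17.8 at 24 h, 32.3 and 30.4 at 14 d and 36.1 and 35.1 at 21 d (replicates A and B). The 24 h replicates spanned the confluent values and reached the subconfluent ones, and all 4 late libraries lay above all 6 early ones. Sox9 rose by 1.24 on the log2 scale at 14 d against confluent cells (standard error, SE, 0.14, adjusted p = 0.00074) and by 1.35 at 21 d (SE 0.14, adjusted p = 0.00025). Between stages that share an index pair it was not called, its log2 differences being -0.24, 0.06 and 0.11 with adjusted p-values of 0.44, 0.82 and 0.73 for confluent against subconfluent, 24 h against confluent and 21 d against 14 d.

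The partner Sox6 (chromosome 7, 115470872 to 116038796, minus strand) had a similar course at a lower level. Its RPKM values were 2.57 and 2.27 in subconfluent, 2.95 and 2.71 in confluent, 1.70 and 3.60 in 24 h, 5.54 and 5.18 in 14 d and 4.80 and 4.76 in 21 d cells. The 24 h replicates lay on both sides of the other early stages, and the 14 d and 21 d libraries were above every early one. Sox6 rose by 1.14 at 14 d against confluent cells (SE 0.27, adjusted p = 0.017) and by 0.90 at 21 d (SE 0.27, adjusted p = 0.031). These calls were not firm: without either confluent or either 14 d replicate the adjusted p for 14 d lay between 0.067 and 0.093, and without either confluent or either 21 d replicate that for 21 d lay between 0.099 and 0.13. The 21 d value was also lost without subconfluent replicate B, 14 d replicate A or 14 d replicate B (adjusted p = 0.050, 0.053 and 0.053).

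Sox5 (chromosome 6, 143828425 to 144781977, minus strand) stayed low. It had 0.358 and 0.300 RPKM in subconfluent, 0.496 and 0.486 in confluent, 0.316 and 0.569 in 24 h, 0.575 and 0.490 in 14 d and 0.558 and 0.634 in 21 d cells, and each stage from confluence on overlapped the next. Against confluent cells its log2 fold changes were 0.33 at 14 d (adjusted p = 0.34) and 0.42 at 21 d (adjusted p = 0.20), and the latter passed the test without the 24 h libraries (adjusted p = 0.035 without both, 0.029 without A and 0.039 without B). Sox5 did pass at 21 d against the subconfluent stage, by 0.97 (SE 0.24, adjusted p = 0.013), which was lost without replicate B of either stage (adjusted p = 0.079 and 0.070).

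Set side by side per length, Sox9 was above the sum of its partners in every library. The ratio of Sox9 to the sum of Sox5 and Sox6, in RPKM, was 6.53 ± 0.539 (SD, n = 2) in subconfluent cells, 4.65 ± 0.216 in confluent cells, 5.25 ± 1.37 at 24 h, 5.32 ± 0.0550 at 14 d and 6.63 ± 0.160 at 21 d. Of the 6 other Sox genes listed, 4 were tested. Sox8, a close relative of Sox9, rose from 0.264 and 0.288 RPKM in confluent cells to 0.546 and 0.506 at 14 d and 1.08 and 1.10 at 21 d, and was called at both (1.14 at 14 d and 2.12 at 21 d, adjusted p = 0.0040 and 0.00015). Sox13, the third member of the SOX5 and SOX6 family, was not called at either stage (0.43 and 0.42, adjusted p = 0.21 and 0.20). Sox4 rose (0.72 and 0.56) and Sox11 fell (-0.97 and -0.67) by less than 2-fold at 14 d and 21 d, and the median over the 4 genes was 0.58 and 0.49 beside 0.03 over all genes in both comparisons.

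**Figure D2:**
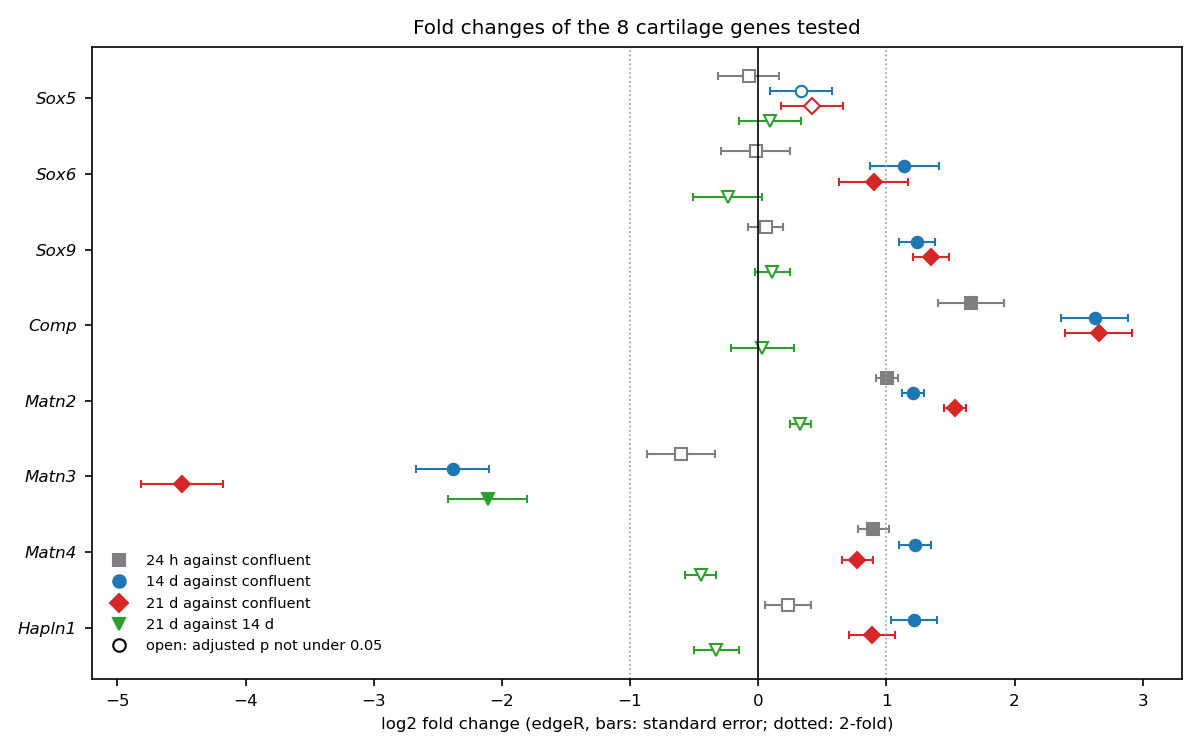
Log2 fold changes (horizontal axis) of the 8 tested genes (vertical axis) in 4 comparisons, with bars for the SE, filled symbols for an adjusted p-value under 0.05 and dotted lines at 2-fold. Matn3 is the one gene far to the left, at -4.49 for 21 d against confluent cells, Comp is furthest to the right, at 2.66, and in 21 d against 14 d every gene but Matn3 has an open symbol.

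Col2a1, the major cartilage collagen and a known SOX9 target, is no member of the set but belongs beside Sox9. Col2a1 was already abundant before differentiation, with 157 and 156 RPKM in subconfluent cells and 81.1 and 74.8 in confluent cells, and went to 33.1 and 44.9 at 24 h, 202 and 210.4 at 14 d and 73.0 and 78.4 at 21 d. It was called higher at 14 d against confluent cells (1.62, SE 0.13, adjusted p = 2.0e-04) but not at 21 d (0.10, adjusted p = 0.57), and fell by 1.52 between 14 d and 21 d (adjusted p = 0.00076). As a share of Col1a1, the bone collagen, Col2a1 stood at 2.82%, 1.25%, 0.787%, 2.14% and 1.49% in the order of the stages.

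Of the 13 chondrocyte collagens and secreted markers listed, 11 were tested. At 14 d against confluent cells 8 were called higher, with a median of 2.71 over the 11, and Col9a3, Chad and Prg4 did not pass (0.03, 1.20 and -0.23). At 21 d 6 were called higher, with a median of 1.98. Over all genes the median was 0.03 in both comparisons, and 9.15% and 12.7% were called higher. At any fold 16.9% and 22% of all genes rose and 15.3% and 20.8% fell. Col11a2, a minor collagen of cartilage fibrils, had 3.26 and 4.68 RPKM in confluent cells, 201 and 219 at 14 d and 64.2 and 64.8 at 21 d, and was higher at 14 d by 5.94 on the log2 scale (SE 0.21, adjusted p = 8.4e-06), having been called in confluent against subconfluent cells too (3.46, adjusted p = 0.00053). Cnmd, which encodes the antiangiogenic cartilage protein chondromodulin, went from 0.502 and 0.763 RPKM to 45.1 and 47.8 at 14 d and 41.8 and 46.7 at 21 d (6.22 at 21 d, adjusted p = 2.1e-05). Col11a1 rose at 14 d (1.62, adjusted p = 0.0021) and was at 34.5 and 32.1 RPKM at 21 d (0.48, adjusted p = 0.13). Col9a1, a chain of the collagen on the surface of cartilage fibrils, had 0 counts in both confluent libraries and 301 at 14 d, at least 115-fold higher against a floor of 3 counts over both libraries, and its level of 0.451 and 0.584 RPKM was nevertheless low. Of the same list Col9a2, Ucma and Snorc also rose at both stages, and Epyc and Cytl1 did not pass the filter. Between 14 d and 21 d, within 1 index pair, 4 of the 11 were called lower (Col2a1, Col11a1, Col11a2 and Col9a1), as were 2.45% of all genes.

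The 6 genes listed as hypertrophic belong to the later stages of growth plate chondrocytes, and several are also expressed by osteoblasts. All were tested. Against confluent cells 4 of 6 rose at 14 d and 5 of 6 at 21 d, with medians of 1.67 and 1.26. Ihh did not pass at either stage (1.78 and 1.25, adjusted p = 0.091 and 0.19), nor did Col10a1 at 14 d (1.08, adjusted p = 0.27). Of all tested genes 16.9% rose at 14 d and 22% at 21 d, and their median was 0.03 in both comparisons. Pth1r, the receptor for parathyroid hormone, had 115 and 142 RPKM in confluent cells and 376 and 396 at 14 d. Mmp13, a collagenase of hypertrophic cartilage and of osteoblasts, had 10.5 and 9.72 RPKM in confluent and 83.8 and 98.1 at 21 d (3.31, adjusted p = 1.2e-05). Col10a1, the collagen that defines hypertrophic chondrocytes, was at or below 0.212 RPKM until 14 d and was at 1.67 and 5.88 RPKM at 21 d. Its replicates differed widely there, but both lay above every earlier library, and the rise from 14 d to 21 d was called within 1 index pair (4.48, SE 0.70, adjusted p = 0.0079). Mef2c, a regulator of hypertrophy, rose by 1.55 at 14 d (adjusted p = 0.00084) and was at 0.79 at 21 d (adjusted p = 0.0090). Of the chondrogenic regulators, 7 of 9 were tested and 4 rose at each stage, with medians of 0.48 and 0.33. Those called were Fgfr3 at 14 d (1.17) and Gdf5 at both (2.97 and 3.24), the latter at no more than 0.306 RPKM. Of all genes, 9.15% were called higher at 14 d and 12.7% at 21 d.

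**Figure D3:**
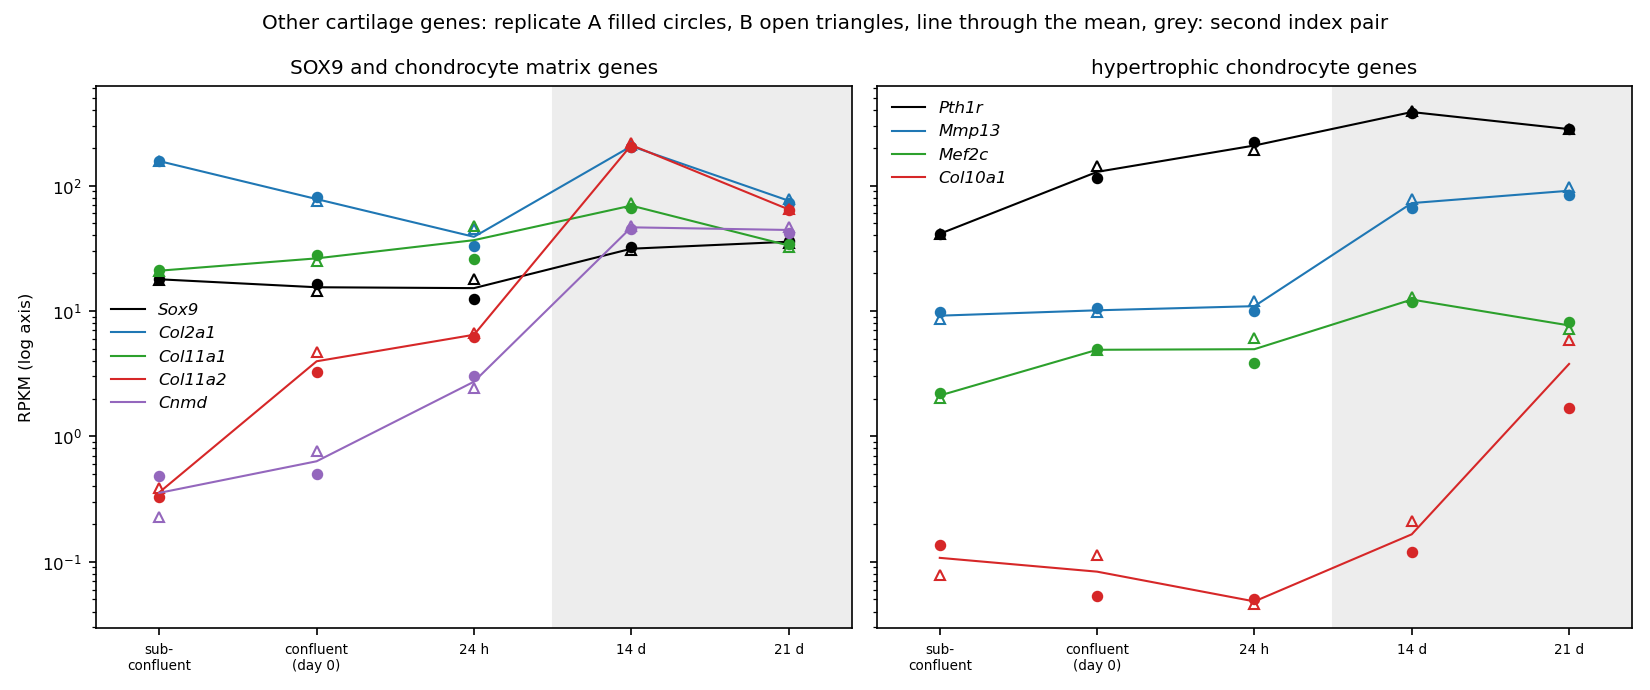
RPKM on a log axis at the 5 stages for Sox9 and 4 chondrocyte matrix genes (left) and for 4 hypertrophic genes (right), with filled circles for replicate A, open triangles for B, lines through the means and grey for the second index pair. From confluence to 14 d Col11a2 and Cnmd climb by more than the other genes shown. Col2a1 starts at 157 and 156 RPKM and is lower at 21 d than at the start, and Col10a1 is low in every library but those of 21 d.

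The osteoblast markers moved in the same libraries. Of the 10, 9 rose at 14 d against confluent cells (median 1.90) and 7 rose at 21 d (median 0.75), beside 16.9% and 22% of all genes. Among them Ibsp and Bglap, the osteocalcin gene, had log2 fold changes of 4.62 and 6.44 at 14 d, and Sp7 and Alpl of 1.37 and 2.43. The highest level of any gene on the chondrocyte list was 219 RPKM, for Col11a2, while Col1a1 had at least 3788 RPKM in every library.

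Acan (chromosome 7, 79053483 to 79115099, plus strand), the most widely used proteoglycan marker of cartilage, was almost without reads. It had 1 and 0 counts in subconfluent cells, 0 and 0 in confluent cells, 0 and 0 at 24 h, 8 and 5 at 14 d and 3 and 10 at 21 d, and its highest level was 0.0206 RPKM. Pooled over libraries, Acan had 1 of 658365226 counts in the 6 early libraries and 26 of 356738763 in the 4 late ones. The late rate was 48.0 times the early one (exact 95% interval 7.88 to 1967, counting error only), and the early libraries differ from the late ones in their index pair too. The main fit did not test Acan, since it did not pass the filter.

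The stretch before the start of Acan is shown because the gene stayed nearly silent while other cartilage genes rose. It is the 250 bases before the RefSeq start (GRCm38.p6, chr7:79052976-79053225, plus strand), 5′ to 3′, and no GENCODE transcript opens at that start. Capitals mark matches to a GC box (GGGCGG, on either strand). The SOX core ACAAT, the RUNX motif TGTGGT and the TATA box TATAAA were also searched on both strands and did not match.
Acan upstream: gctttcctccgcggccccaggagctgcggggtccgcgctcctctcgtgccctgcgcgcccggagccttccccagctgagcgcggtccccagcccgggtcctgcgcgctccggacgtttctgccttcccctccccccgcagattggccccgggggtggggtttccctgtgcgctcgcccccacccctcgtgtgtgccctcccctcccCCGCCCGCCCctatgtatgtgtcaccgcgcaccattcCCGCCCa
Among 32851 RefSeq promoters in windows of the same length, 32.7% held the GC box, 27.7% the SOX core, 14% the RUNX motif and 12.4% the TATA box.

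Hapln1, which encodes the link protein that fixes lecticans such as aggrecan and versican to hyaluronan, was expressed throughout. It lies on chromosome 13 (89539796 to 89611652, plus strand) with Vcan, the versican gene, 43.7 kb beyond it on the minus strand (89655312 to 89742509). Hapln1 had 5.60 and 4.81 RPKM in subconfluent, 6.41 and 6.02 in confluent, 6.16 and 7.59 in 24 h, 10.7 and 14.1 in 14 d and 9.26 and 11.6 in 21 d cells. The confluent and 24 h values overlapped, as did those of 14 d and 21 d, and all late libraries lay above all early ones. It rose by 1.22 at 14 d against confluent cells (SE 0.18, adjusted p = 0.0024) and by 0.89 at 21 d (SE 0.18, adjusted p = 0.0058), and the former came to just under 2-fold without 14 d replicate B (0.98).

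Its neighbour Vcan moved the other way. Versican had 8.51 and 8.19 RPKM in subconfluent, 8.33 and 7.58 in confluent, 2.18 and 3.63 in 24 h, 1.54 and 1.62 in 14 d and 1.23 and 0.967 in 21 d cells. Vcan fell by 1.37 on the log2 scale in 24 h against confluent cells, within 1 index pair (SE 0.21, adjusted p = 0.014), and fell by 2.72 at 21 d (SE 0.22, adjusted p = 8.3e-05). The ratio of Hapln1 to Vcan in RPKM went from 0.622 ± 0.0499 (SD, n = 2) in subconfluent cells and 0.782 ± 0.0173 in confluent cells to 2.46 ± 0.518 at 24 h, 7.84 ± 1.28 at 14 d and 9.74 ± 3.14 at 21 d. Thus link protein transcripts came to exceed those of versican, while aggrecan transcripts were at most 1.73% of the sum of Acan and Vcan in any library.

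**Figure D4:**
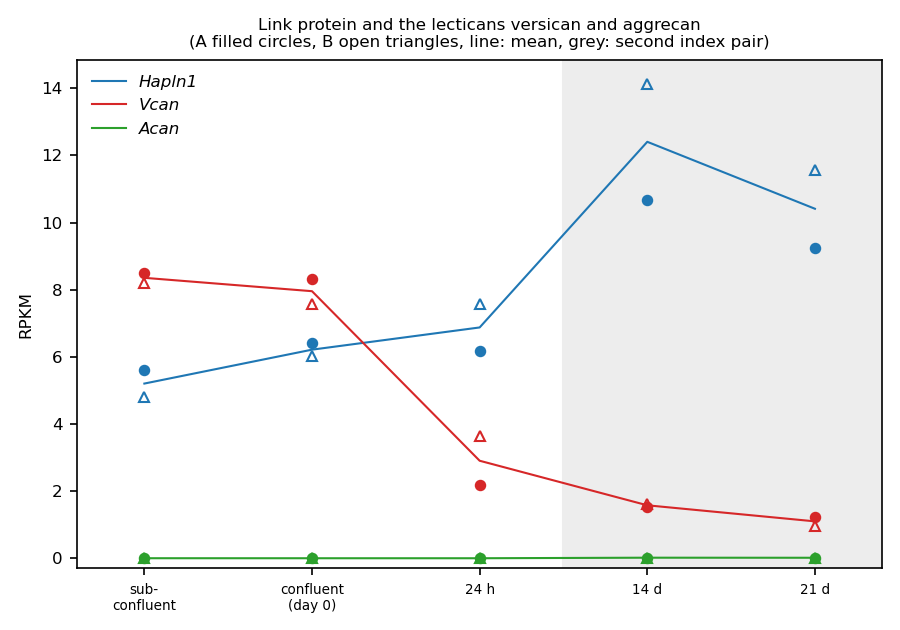
RPKM (vertical axis) of Hapln1, Vcan and Acan at the 5 stages, with filled circles for replicate A, open triangles for B, lines through the means and grey for the second index pair. Hapln1 and Vcan cross between confluence and 24 h, and Acan lies on the base line at no more than 0.0206 RPKM.

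Of the 10 lecticans, link proteins and aggrecanases listed, 8 were tested and 2 rose and 2 fell at 14 d against confluent cells (median 0.19). Brevican (Bcan) was called higher at 14 d (2.24, adjusted p = 0.0027) at no more than 0.355 RPKM, Hapln2 was called lower there on 18 counts in confluent and 1 in 14 d cells, and Hapln4 rose by less than 2-fold (0.47). At 21 d 1 rose, Hapln4, and 2 fell, Vcan and the hyaluronan receptor gene Cd44, with a median of 0.33. Of 24 genes for chondroitin sulfate and hyaluronan synthesis, 22 were tested, and 9 rose and 1 fell at 14 d (median 0.34) while 6 rose and 4 fell at 21 d (median 0.07). Over all genes 16.9% rose and 15.3% fell at 14 d and 22% rose and 20.8% fell at 21 d, so the shares of this list at 21 d were near the background. Has2, the main hyaluronan synthase, had 2.53 and 2.28 RPKM in confluent cells, 6.91 and 7.14 at 14 d and 5.68 and 5.41 at 21 d, but its subconfluent values of 5.73 and 5.41 were as high as those of 21 d. The sulfotransferase genes Chst11 and Chst3 rose by 1.39 and 2.36 at 14 d (adjusted p = 0.0017 and 0.0012), and Has1 by 2.88 at no more than 0.261 RPKM.

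The 4 matrilins, multimeric adaptor proteins built around von Willebrand factor A domains, went different ways. Matn1 (chromosome 4, 130944385 to 130955475, plus strand), the matrilin of hyaline cartilage, had 13 counts over the 10 libraries and at most 2 in any 1 library. Its highest level was 0.0287 RPKM, and the late to early ratio of its rates was 2.15 with a 95% interval of 0.620 to 7.75, so that no difference was detectable at this depth.

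Matn3 (chromosome 12, 8947929 to 8972028, plus strand), whose product joins Matn1 in cartilage and is the matrilin of the growth plate, was the one tested gene of the set to fall. It had 3.14 and 2.76 RPKM in subconfluent, 1.85 and 2.17 in confluent, 1.20 and 1.29 in 24 h, 0.322 and 0.343 in 14 d and 0.0475 and 0.104 in 21 d cells. The stages did not overlap at any step, and the order from subconfluent to 21 d was the same in both replicates. Matn3 fell by 2.38 on the log2 scale at 14 d against confluent cells (SE 0.28, adjusted p = 0.00097) and fell by 4.49 at 21 d (SE 0.32, adjusted p = 5.2e-05). The step from 14 d to 21 d, within 1 index pair, was called too, at -2.11 (SE 0.31, adjusted p = 0.0058), on counts that were no more than 87 at 14 d and 25 at 21 d. The early steps were -0.58 and -0.60 and did not pass the test (adjusted p = 0.33 and 0.23).

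Matn4 (chromosome 2, 164389393 to 164405160, minus strand) rose first. Its RPKM values were 8.40 and 8.39 in subconfluent, 20.6 and 21.5 in confluent, 40.1 and 33.3 in 24 h, 43.2 and 41.4 in 14 d and 33.1 and 32.1 in 21 d cells. Subconfluent and confluent cells stood well apart from each other and from the rest, while 24 h and 21 d lay next to each other. It was the only one of the 8 to be called in confluent against subconfluent cells, at 1.30 (SE 0.12, adjusted p = 0.0028), where 1.43% of all genes were called. Against confluent cells it rose by 0.90 at 24 h (adjusted p = 0.0095), by 1.22 at 14 d (SE 0.12, adjusted p = 0.00049) and by 0.77 at 21 d (SE 0.12, adjusted p = 0.0020). The 24 h value did not pass the test without confluent replicate A or B (adjusted p = 0.083 and 0.064).

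Matn2 (chromosome 15, 34306677 to 34436273, plus strand), the matrilin with the widest tissue range, had the highest mean RPKM of the set. That order rests on the gene length used, since its mean count over the 10 libraries was 8470.2 against 11033.7 for Matn4. It had 20.0 and 20.5 RPKM in subconfluent, 22.5 and 21.2 in confluent, 38.5 and 44.1 in 24 h, 43.8 and 43.2 in 14 d and 54.9 and 60.1 in 21 d cells. The values formed steps, with subconfluent and confluent close together, 24 h and 14 d overlapping and 21 d on top. Against confluent cells Matn2 was called at 24 h (1.01, SE 0.08, adjusted p = 0.0016), at 14 d (1.21, SE 0.08, adjusted p = 0.00011) and at 21 d (1.54, SE 0.09, adjusted p = 2.1e-05). The last step, from 14 d to 21 d, was 0.33 with an adjusted p of 0.052.

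At 24 h against confluent cells, within 1 index pair, 2 of the 8 genes were called, Comp and Matn2, where 2.13% of all genes were called. The count was 1 without confluent replicate A and 0 without confluent replicate B, where Matn2 came to 0.97, Matn2 was at 0.99 without 24 h replicate B, and when only these 2 stages were fitted no gene of the set passed (adjusted p between 0.26 and 0.38 for Comp, Matn2 and Matn4). At 14 d against 24 h 3 were called, Sox6 (1.16) and Sox9 (1.18) higher and Matn3 lower (-1.78), beside 5.98% of all genes, and Comp (0.96) and Hapln1 (0.98) rose by less than 2-fold. That count was 1 without 14 d replicate B, and 0 when only the 2 stages were fitted, where the adjusted p-values lay between 0.062 and 0.23. Sox6 was also lost there without any 1 of the subconfluent, confluent, 14 d or 21 d libraries (adjusted p between 0.051 and 0.12), and Matn3 without 14 d replicate A or B (0.063 and 0.057). Hapln1 was lost without 14 d replicate B (0.076), and Comp without 24 h replicate B or any 1 of the confluent, 14 d or 21 d libraries (0.063 to 0.19). At 21 d against 14 d only Matn3 was called, beside 3.97% of all genes.

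Within the family, Matn3 made up 9.32% ± 0.868 (SD, n = 2) of the summed RPKM of the 4 matrilins in subconfluent cells, 4.47% ± 0.503 in confluent cells, 1.57% ± 0.0992 at 24 h, 0.386% ± 0.0252 at 14 d and 0.0833% ± 0.0415 at 21 d. Matn4 accounted for 26.5% in subconfluent cells, between 46.3% and 49.1% from confluence to 14 d and 36.2% at 21 d. The ratio of Matn4 to Matn2 was 0.414 ± 0.00746 in subconfluent cells, 0.964 ± 0.0662 in confluent cells, 0.898 ± 0.202 at 24 h, 0.972 ± 0.0191 at 14 d and 0.568 ± 0.0482 at 21 d, and Matn4 exceeded Matn2 in confluent replicate B and 24 h replicate A alone. These ratios rest on the gene lengths of the authors, which for Matn2 was 3442 bases where the exons of GENCODE cover 6263 bases.

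**Figure D5:**
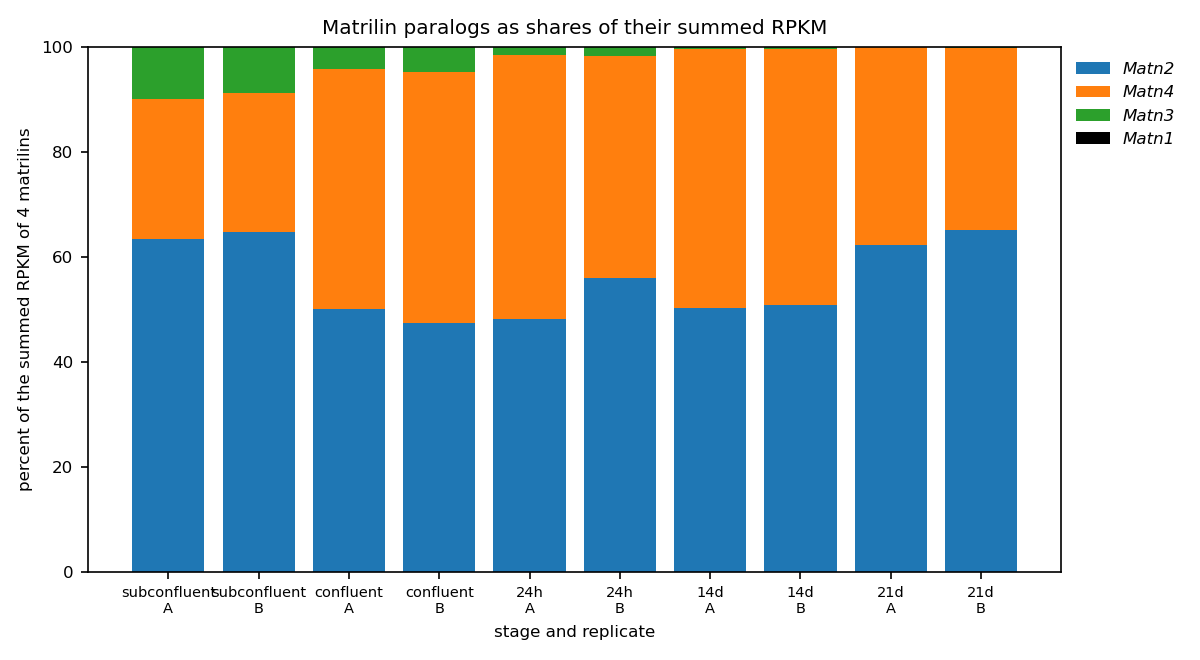
Shares of Matn2, Matn4, Matn3 and Matn1 (stacked, in percent of their summed RPKM) in each of the 10 libraries. Matn3 shrinks from 9.93% and 8.70% in subconfluent cells to a line too thin to see at 21 d, Matn1 is not visible, and Matn2 and Matn4 take nearly equal parts in the confluent and 14 d libraries.

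Matn3 and Matn4 are shown with the 250 bases before their RefSeq starts, since they moved in opposite directions over the same libraries. Both starts open a GENCODE transcript, and both stretches are given 5′ to 3′ on the gene's strand, for Matn3 chr12:8947679-8947928 (plus) and for Matn4 chr2:164405161-164405410 (minus), in GRCm38.p6. Capitals mark the GC box. The stretch of Matn3 held 3 overlapping copies, the nearest ending 7 bases before the start, and that of Matn4 held no match to any of the 4 motifs.
Matn3 upstream: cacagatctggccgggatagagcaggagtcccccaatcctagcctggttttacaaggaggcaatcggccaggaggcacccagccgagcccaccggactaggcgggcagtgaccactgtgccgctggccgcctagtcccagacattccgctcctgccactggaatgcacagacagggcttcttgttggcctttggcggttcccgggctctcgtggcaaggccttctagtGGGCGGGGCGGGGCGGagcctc
Matn4 upstream: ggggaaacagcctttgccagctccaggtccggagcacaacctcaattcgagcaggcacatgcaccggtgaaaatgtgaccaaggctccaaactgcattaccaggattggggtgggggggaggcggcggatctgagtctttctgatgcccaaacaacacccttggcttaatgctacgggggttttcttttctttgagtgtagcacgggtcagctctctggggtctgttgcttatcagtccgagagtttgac
RefSeq lists a second start for Matn4, whose window held 1 GC box. In all, 13 windows of 7 of the 10 genes were found, 5 with the SOX core, 4 with the RUNX motif, 1 with the TATA box and 5 with the GC box. Several of the windows belong to alternative starts of Sox6. The SOX core was found only for Sox5, Sox6 and Hapln1, and the RUNX motif only for Matn1, Sox6 and Hapln1. Among all RefSeq promoters 27.7% held the SOX core, 14% the RUNX motif, 12.4% the TATA box and 32.7% the GC box.

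Comp (chromosome 8, 70373558 to 70382066, plus strand), the pentameric thrombospondin of cartilage and tendon, showed the largest rise of the tested genes of the set against confluent cells. It had 0.642 and 0.402 RPKM in subconfluent, 0.501 and 0.554 in confluent, 1.75 and 1.38 in 24 h, 2.62 and 3.01 in 14 d and 2.98 and 3.07 in 21 d cells. Subconfluent and confluent values overlapped, 24 h lay between them and the late stages, and 14 d and 21 d overlapped. Against confluent cells the log2 fold changes were 1.66 at 24 h (SE 0.26, adjusted p = 0.015), 2.63 at 14 d (SE 0.26, adjusted p = 0.00048) and 2.66 at 21 d (SE 0.26, adjusted p = 0.00022). The 24 h call was lost without confluent replicate A or B (adjusted p = 0.11 and 0.092). In 14 d replicate A, which was sequenced in 2 lanes, the lanes gave 4.27 and 2.92 CPM (counts scaled to a common library size) for Comp, and the result was kept when the lanes were summed.

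Comp remained a small part of its family. It made up 0.231% ± 0.0771 (SD, n = 2) of the summed RPKM of the 5 thrombospondins in subconfluent cells, 0.359% ± 0.0664 in confluent cells, 1.15% ± 0.623 at 24 h, 1.20% ± 0.115 at 14 d and 1.45% ± 0.0669 at 21 d. Thbs1 had 83.5 and 67.8 RPKM in confluent cells and 164 and 161 at 14 d (1.32, adjusted p = 0.016), but its subconfluent values of 146 and 149 were close to that. Thbs2 was not called (0.30 and -0.28 at 14 d and 21 d, adjusted p = 0.22 and 0.21). Thbs3 fell by 1.06 at 14 d and fell by 1.48 at 21 d on the log2 scale (adjusted p = 0.00031 and 3.5e-05). Thbs4, the closest relative of Comp, had 0 counts in both confluent libraries and 124 at 14 d, at least 47.4-fold higher against a floor of 3 counts over both libraries, at 0.320 and 0.278 RPKM. The list of 4 had 2 genes called higher and 1 called lower at both late stages, with medians of 0.81 and 0.45, where 9.15% and 3.85% of all genes were called higher and lower at 14 d and 12.7% and 8.42% at 21 d.

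Since Comp is also a tendon gene, tendon markers were set beside it. Of 4, 3 were tested, and 1 rose at 14 d, while 1 rose and 1 fell at 21 d. Of all tested genes 16.9% rose and 15.3% fell at 14 d, and 22% rose and 20.8% fell at 21 d. Fmod, fibromodulin, rose by 0.86 at 14 d (adjusted p = 0.00083) and 1.15 at 21 d (adjusted p = 0.00011) from 529 and 478 RPKM in confluent cells. Scx and Mkx, the transcription factors of tendon, did not rise (-0.05 and 0.03 at 14 d, adjusted p = 0.84 and 0.86), Scx fell by 0.46 at 21 d (adjusted p = 0.027), and Tnmd, tenomodulin, was at or near 0. The summed RPKM of the list, most of it Fmod, was 498 to 549 in confluent cells, 800 to 801 at 14 d and 1019 to 1033 at 21 d. Without Fmod the sum was 20.0 to 20.2 in confluent cells, 16.4 to 17.3 at 14 d and 12.9 to 15.1 at 21 d.

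Markers of other cell types were examined in the same libraries, where 16.9% of all tested genes rose and 15.3% fell at 14 d. At 21 d 22% rose and 20.8% fell. With at most 4 tested genes in each list, counts of 0 or 1 say little beside these shares. The 6 adipocyte markers summed to 4.61 to 5.51 RPKM in confluent cells and 6.53 to 6.83 at 21 d. Adipoq and Plin1 were at or near 0. Of the 4 tested, Cebpa alone rose at 14 d (0.62, adjusted p = 0.0094) and at 21 d (0.50, adjusted p = 0.016). Of 6 muscle markers Acta1 fell by 1.32 at 21 d (adjusted p = 0.00061), and the others summed to at most 0.670 RPKM in any library, with Myod1, Myog and Myf5 at or near 0. Of 6 blood cell markers, 4 were tested and did not pass at 14 d or 21 d (adjusted p between 0.12 and 0.93), and Ptprc and Adgre1 were at or near 0. Tyrobp differed widely between replicates, giving a sum of the list of 15.4 to 197.4 RPKM in confluent and 18.4 to 273.5 at 21 d, against at most 19.2 without it. The 4 endothelial markers summed to at most 0.107 RPKM, and Tek passed at 21 d on 24 counts against 3. Their part in the results was not tested.

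Genes with the most similar course were sought among 15739 tested genes with a mean of at least 1 RPKM, by Pearson correlation of log2 CPM over the 10 libraries. For Sox9 they were Col4a1 (0.996), Col4a2 (0.995) and Rnf19a (0.993), the first 2 being the paired chains of basement membrane collagen. For Matn2 they were Gm8812 (0.997), Ccndbp1 (0.994) and Foxred2 (0.994). The 10 points share stages and index pairs, so these values describe the courses only.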

How the data were processed

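RNA of MC3T3-E1 cells was sequenced as 51 bp paired-end reads. The submitters' processing notes name TopHat2 2.0.9, R 3.0.1, FastQC and mm10, while the counting tool, its annotation and strand setting are not given in the sources used here. The authors deposited raw counts for 40620 genes and RPKM values made by dividing counts by gene length and a number of reads, and 40602 rows of RPKM were complete. Symbols and coordinates came from GENCODE vM21 (GRCm38, 39547 identifiers matched) and promoter sequences from RefSeq (GRCm38.p6). Sox5, Matn2 and Matn4 share 1330, 70 and 149 exonic bases with genes on the other strand, whose reads may not be told apart.

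Counts of the 10 libraries (44736156 to 162939333 each) were fitted in edgeR 4.0.16 (R 4.3.3) with filterByExpr, TMM and 5 groups, and 7 comparisons and an F test were made. Standard errors are the log2 fold change over the root of F. Intervals and floors cover counting error only. Merged lane columns were used. The alternatives were DESeq2 1.42.0, limma 3.58.1 on log2(RPKM + 1) and log2(RPKM + 0.1), other scalings, filters, thresholds and sample sets, summed lanes, the replicate letter as a block, and each replicate left out. The script was tested on simulated data.

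The genes and lists were chosen with earlier results of these data known. Named genes are every member of the set, Vcan, Col2a1, Sox13, Thbs1, Thbs2 and Thbs3, up to 4 genes per list called at 14 d or 21 d against confluent cells by highest mean RPKM, and the 3 genes most correlated with Sox9 and Matn2. Genes named to spell out a count or the absence of a marker were chosen after their values were seen.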

Additional observations from a re-analysis of the deposited data

How the results depend on the processing

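Of 34 fold changes of the set and their 735 values under the alternatives, 677 kept their direction and side of the threshold, 54 kept the direction but no longer passed, 4 came to pass and 0 reversed. These 34 were every tested gene of the set at 14 d and 21 d against confluent cells. From the other comparisons only fold changes that had passed in the main fit were taken. The tally thus leaves out fold changes there that did not pass, and is weighted to results that did. The larger moves in the numbers of genes called were as follows, and not every smaller difference is listed. In confluent against subconfluent cells, 0 in place of 1 were called at more than 4-fold. In 24 h against confluent cells (2), 1 was called with DESeq2 size factors, with library size alone, with DESeq2 and on log2(RPKM + 0.1), and 0 on log2(RPKM + 1), at more than 4-fold or with only the groups compared, while 3 passed at any fold. In 14 d against 24 h (3), 0 were called with only the groups compared or at more than 4-fold, 1 on log2(RPKM + 1) and 5 at any fold. In 21 d against 14 d (1), 0 were called on log2(RPKM + 1) and with at least 10 counts in every sample, which removes Matn3. In 14 d against confluent cells (7), 3 were called with library size alone, 2 on log2(RPKM + 1) and at more than 4-fold, and 4 on log2(RPKM + 0.1). In 21 d against confluent cells (4), 7 were called at any fold, and 2 when the limit was 4-fold. In 21 d against subconfluent cells (7), 4 were called with library size alone and on both RPKM scales, at the 4-fold limit 3 were, and 8 passed at any fold. With single replicates left out, the numbers called ranged from 0 to 2 in 24 h against confluent cells, 1 to 4 in 14 d against 24 h, 5 to 7 in 14 d against confluent cells, 4 to 5 in 21 d against confluent cells and 6 to 8 in 21 d against subconfluent cells. Where this left 1 library in a group, it was assumed to vary like the others. Comparisons with 24 h have no value without the 24 h samples.

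No shift shared by replicates of the same letter was seen. The correlations of the A replicates' deviations over 10 pairs of stages ran from -0.18 to 0.0995, with 0 over 0.1. Such values cannot show that the samples were not paired, and within each index pair the letter goes with the index sequence. With the replicate block the numbers called were 1, 2, 3, 1, 7, 4 and 7 for the comparisons in the order above, and Comp in 14 d against 24 h had an adjusted p of 0.060. Over all genes, the log2 difference of 21 d from confluent cells had a median of 0.03, and -0.11 with library size alone and 0.14 with upper-quartile factors. With counts in place of RPKM the ratio of Matn4 to Matn2 was 0.693, 1.61, 1.50, 1.63 and 0.951 in the order of the stages, so which of them is higher depends on the gene length used. Of the ratios set under both units, 43 of 50 moved by more than the spread between replicates. For 2 single genes this move is fixed by their gene lengths, so it is no test of the ratios. With 2 libraries a stage the spread is poorly known, and the depth was too low to show a change of Matn1.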
